A study of Drosophila melanogaster with 3 samples.

Results

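The genes described here are the small nucleolar and small Cajal body RNA genes of Drosophila melanogaster and the genes that contain them. Members were all annotated genes whose symbol begins with snoRNA, scaRNA or snmRNA, which gave 274 of 18277 genes: 257 snoRNA genes, 17 scaRNA genes and 0 snmRNA genes. A host was any other gene that contains a whole small RNA on the same strand, and 251 members had one, in 99 host genes. Binding was read from chromatin immunoprecipitation and sequencing (ChIP-seq) of whole embryos of both sexes, 0 to 24 hours old. The flies stably expressed CG10565 fused to eGFP at its C terminus, and an antibody against GFP was used on sonicated chromatin of 200 to 800 bp. The 3 biological replicates, numbered 1, 2 and 4, form 1 group, so every comparison sets genes against genes. The values therefore describe a tagged protein in embryos of many stages and tissues at once.

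Small nucleolar RNAs guide enzymes to chosen bases of ribosomal RNA. Box C/D members direct 2′-O-methylation through the methyltransferase fibrillarin, box H/ACA members direct pseudouridylation through dyskerin, and scaRNAs do the same for spliceosomal RNAs in Cajal bodies. In flies most of them are cut from introns of a host transcript and so depend on the host's promoter. Many hosts encode ribosomal proteins, and others are non-coding genes, named Uhg, whose introns are their main product. The CG10565 protein has a J domain, and its human relative DNAJC2 is a chaperone that sits on ribosomes.

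The sequences below are those the results turn on, read 5′ to 3′ from the RefSeq genome of release 6 (dm6). The first set shows small RNAs of RpL28 and RpS12, whose starts lie at different distances from a bound host promoter. Capitals mark the C box (TGATGA) near the 5′ end and the D box (CTGA) near the 3′ end. The C box letters do not occur in snoRNA:Or-CD11c.
snoRNA:Or-CD11a, chr3L:3222475-3222541, minus strand: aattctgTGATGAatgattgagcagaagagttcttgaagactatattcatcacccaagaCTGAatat
snoRNA:Or-CD11c, chr3L:3222050-3222116, minus strand: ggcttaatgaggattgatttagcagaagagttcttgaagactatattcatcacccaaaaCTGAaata
snoRNA:Me28S-A774a, chr3L:13024226-13024298, plus strand: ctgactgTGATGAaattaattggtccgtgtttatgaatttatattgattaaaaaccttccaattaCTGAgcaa
snoRNA:Me28S-A774b, chr3L:13023580-13023652, plus strand: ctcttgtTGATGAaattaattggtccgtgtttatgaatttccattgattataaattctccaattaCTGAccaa
The second set shows the starts of 6 ribosomal protein hosts with strong peaks, each with 40 bases before the transcription start site (TSS) and 20 from it on. Capitals mark a TCT initiator core, CTTT on the gene strand with its C within 5 bases of the TSS, an element known from ribosomal protein promoters.
RpL23A, chr3L:1668635-1668694, minus strand: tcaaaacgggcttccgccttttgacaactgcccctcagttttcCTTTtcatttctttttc
RpL28, chr3L:3222941-3223000, minus strand: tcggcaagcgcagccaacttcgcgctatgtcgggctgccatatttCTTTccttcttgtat
RpL14, chr3L:8600966-8601025, plus strand: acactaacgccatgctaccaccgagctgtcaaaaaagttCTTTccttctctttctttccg
RpL13A, chr3R:5624434-5624493, plus strand: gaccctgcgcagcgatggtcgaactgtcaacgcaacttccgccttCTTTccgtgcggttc
RpS20, chr3R:20822141-20822200, plus strand: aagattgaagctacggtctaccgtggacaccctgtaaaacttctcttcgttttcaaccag
RpL22, chrX:765111-765170, minus strand: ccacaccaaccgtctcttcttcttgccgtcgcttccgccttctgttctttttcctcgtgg
The third set shows 121 bases centred on the summits at 2 hosts that encode no ribosomal protein, CG1142, the host with the highest signal, and Irbp. Capitals mark the TATA box letters TATAAA, found at the Irbp summit and not at that of CG1142.
CG1142, chr3R:7473878-7473998, minus strand: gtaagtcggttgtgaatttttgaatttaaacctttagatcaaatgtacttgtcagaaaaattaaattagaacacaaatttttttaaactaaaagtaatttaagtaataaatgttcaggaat
Irbp, chr3R:11409900-11410020, plus strand: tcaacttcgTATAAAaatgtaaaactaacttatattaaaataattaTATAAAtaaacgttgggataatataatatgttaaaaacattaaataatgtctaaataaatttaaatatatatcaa

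The protein was found at the promoters of a number of host genes. At the small RNAs' own starts its share was near that of other non-coding RNA genes. An optimal peak (IDR peak), one of the 1143 regions that the authors retained by the irreproducible discovery rate, had its summit within 500 bp of a TSS of 19 of the 99 hosts (19.2%, 95% Wilson interval 12.6 to 28). The share was 4.91% over all genes and 5.93% over protein-coding genes. Only 4 of the 274 small RNA genes had such a summit within 500 bp of their own start (1.46%, interval 0.569 to 3.69), against 1.80% of the other non-coding RNA genes. Counting a small RNA as reached when its own start or its host's start had an IDR peak gave 59 of 274 (21.5%). All 59 lie in the 19 hosts above, 14 of them in RpS5a, so this share depends on how many small RNAs a host contains. No share over all genes was computed by the same rule, and 4.91% is not its counterpart. Intervals cover counting error only and treat genes as independent, which genes in 1 host are not.

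**Figure D1:**
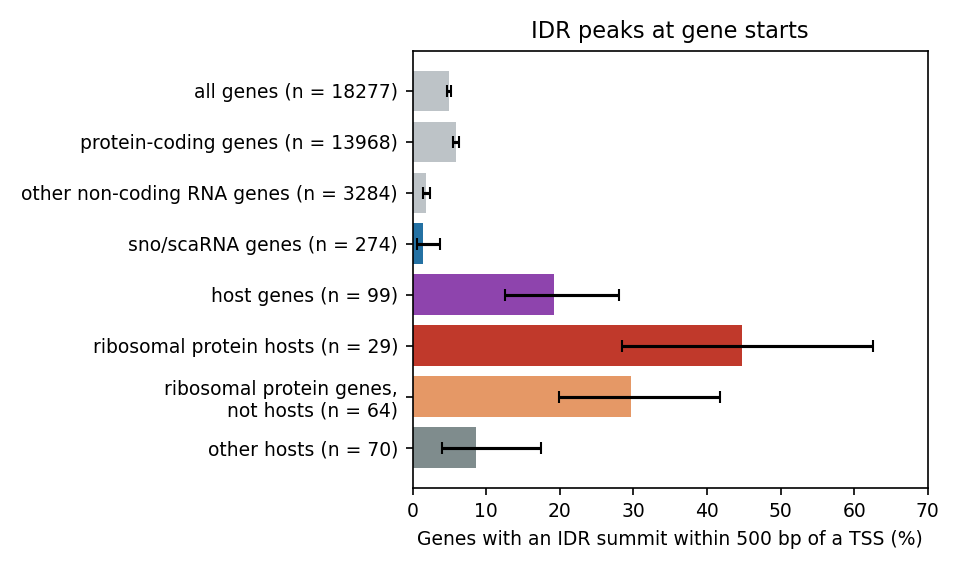
Share of genes whose start lies at most 500 bp from an IDR summit (x axis, percent) in 8 groups of genes (y axis), with 95% Wilson intervals as error bars and the number of genes in brackets. The small RNA genes sit at 1.46%, near the other non-coding RNA genes at 1.80% and below all genes at 4.91%. The ribosomal protein hosts sit at 44.8% and the other hosts at 8.57%.

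The wider list of pooled calls showed the same order. It also holds the IDR peaks at the hosts, with the same signals, so it is not independent of the IDR list. Weaker calls were not counted apart from these peaks. The pooled list, 30000 strong and weak calls from the 3 replicates together, had a summit at the start of 79 hosts (79.8%) and of 72 small RNA genes (26.3%), against 40.9% of all genes. Of all genes with a pooled call at the start, 12.0% also had an IDR peak there. The corresponding share was 24.1% for the hosts and 5.56% for the small RNA genes. Calls of replicate 1 lay at 88 host starts and 111 small RNA starts, with 46.4% of all genes as the background. Calls of replicate 2 lay at 45 host starts and 34 small RNA starts (background 29.9%), and those of replicate 4 at 72 and 84 (background 36.7%). Over the hosts these shares are 88.9%, 45.5% and 72.7%, each above the background, and over the small RNAs 40.5%, 12.4% and 30.7%, each below it. The other non-coding RNA genes had 28.5%, 26.1% and 23.8%, so the small RNAs lay above them in replicates 1 and 4 and below them in replicate 2. In the pool these genes had 28.6%, against 26.3% for the small RNAs. All 3 replicates had a call at 39 hosts and at 14 small RNA genes, and no list had one at 7 hosts and 119 small RNA genes. The matching counts over all genes were not taken, so these 4 counts cannot be read as high or low.

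Each small RNA with an IDR peak at its start shared that peak with its host. snoRNA:Or-CD11a, a box C/D gene named as an orphan, starts 470 bp downstream of the summit at the RpL28 promoter. Its best call had a signal of 43.1 in replicate 1, 79.5 in replicate 2 and 79.7 in replicate 4. snoRNA:Me28S-A774b, named for a methylated adenosine of 28S rRNA, starts 221 bp downstream of the summit at RpS12, and its values in the same order were 11.4, 53.9 and 61.6. The other two are box H/ACA genes in Uhg4. snoRNA:Psi28S-2949 starts 183 bp downstream of the Uhg4 summit, with signals of 45.1, 75.4 and 49.5, and snoRNA:Or-aca5 starts 496 bp downstream of it. snoRNA:Or-aca5 had no call in replicate 1, a signal of 75.4 in replicate 2 and 26.6 in replicate 4. When a peak was given only to the gene with the nearest TSS, the number of small RNAs with an IDR peak was 0. With a window of 1000 bp it was 21 and with 250 bp it was 2.

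In each pair of related copies shown above, only 1 copy starts within 500 bp of the summit at the host promoter. Their difference in IDR peaks therefore restates their position. Other families were not compared in this way. Of the 11 copies of snoRNA:Psi18S-525, for example, 4 had a pooled call, while Arpc2, a host of this family, had none at a start. snoRNA:Or-CD11a and snoRNA:Or-CD11c lie in RpL28 and were identical over 82.4% of 68 aligned positions, yet Or-CD11c had no IDR peak at its start and a pooled signal of 28.9, against 210 at Or-CD11a. snoRNA:Me28S-A774a lies 874 bp from the RpS12 start and had no call in any list, while snoRNA:Me28S-A774b, with 85.1% identity over 74 positions, lies 228 bp from it. Reads from such copies can be hard to place, and how they were handled was not given in the sources used here. Across the 251 small RNAs with a host, the distance from the nearest host TSS upstream had a median of 1490 bp. Of the 33 within 500 bp of it, 19 had a pooled call and 4 an IDR peak at their own start. Of the 51 that lie farther, up to 1000 bp, 8 had a pooled call and 0 an IDR peak. Beyond 1000 bp no small RNA had an IDR peak at its start either.

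No IDR summit lay inside a small RNA gene. These genes cover 33193 bp together, 0.0241% of the chromosome arms, which leaves little room for a summit. A pooled summit lay inside 10 of them. The highest signals among these were 51.7 in snoRNA:Me18S-C1968 and 44.1 in snoRNA:Psi28S-2442b, both under the lowest signal in the IDR list, 106.

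The 29 hosts that encode ribosomal proteins had an IDR peak in 13 cases (44.8%, interval 28.4 to 62.5), out of 19 among all hosts. Of the 64 ribosomal protein genes that contain no small RNA, 19 had one (29.7%, interval 19.9 to 41.8), and the intervals of these 2 shares overlap. Their order turned when replicate 2 was left out and only peaks supported by both other replicates were kept, to 6.90% of hosts against 17.2%, and when replicate 1 was, to 17.2% against 20.3%, while without replicate 4 it was 24.1% against 20.3%. Hosts of other kinds had an IDR peak in 6 of 70 cases (8.57%, interval 3.99 to 17.5), an interval that includes the 5.93% of protein-coding genes. The hosts with the highest pooled signal in the ribosomal group were RpL23A at 230, RpL28 at 210, RpL14 at 182, RpL13A at 176 and RpL11 at 161. RpS20 (156), RpL22 (149), RpS5a (145), RpL30 (130), RpS16 (125), RpL17 (113), RpS3A (107) and RpS12 (107) followed. The remaining 16 ribosomal protein hosts had pooled signals of 35.7 to 99.3, except sta, which had no pooled call.

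**Figure D2:**
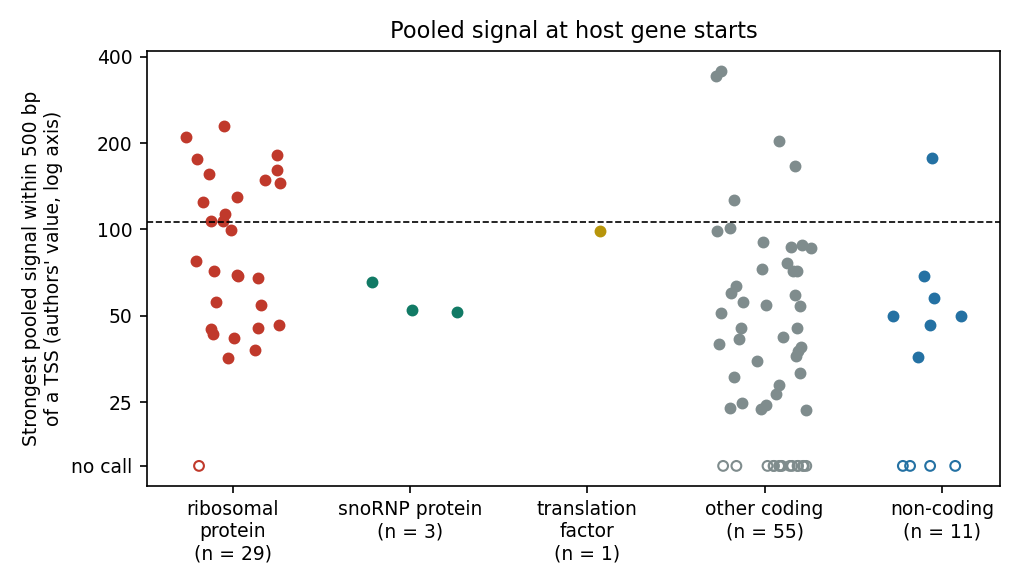
Strongest pooled signal within 500 bp of a TSS (y axis, the authors' value, log axis) for the 99 hosts by kind (x axis); each point is 1 host, open points had no pooled call, and sideways spread is for display. The dashed line is the weakest IDR peak, at 106, and 13 of 29 ribosomal protein hosts lie on or above it.

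In the ribosomal protein hosts the summits lay close to the start. All 13 were within 150 bp of a TSS and 12 were upstream of it, with a median of 51 bp. At RpL23A the peak was chr3L:1668694-1668795 (dm6), with its summit 106 bp upstream of the start. At RpL28 it was chr3L:3222826-3223195, 51 bp upstream, and the start of eIF1, a translation initiation factor, lay within 500 bp as well. Another gene or small RNA start lay within 500 bp of 8 of the 13 summits, so the peak cannot be given to the host alone there. In all 13 the host was the gene with the nearest TSS.

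**Figure D3:**
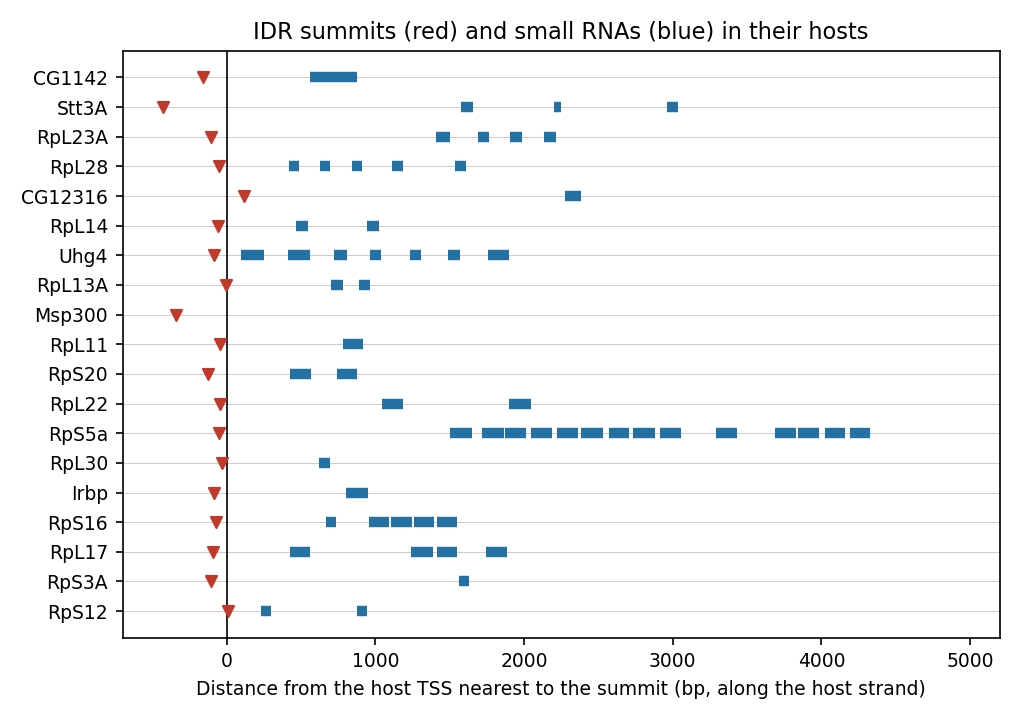
Summits of the IDR peaks (red triangles) and the small RNAs (blue bars) at the 19 hosts, in order of pooled signal, by distance in bp along the host strand from the host TSS nearest to the summit (x axis). The summits lie at the start, 17 of 19 upstream of it, and the small RNAs downstream; the small RNA of Msp300, 94215 bp from its summit, falls outside the axis.

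The replicates differed at the ribosomal protein hosts. To compare them, the strongest calls of a replicate were taken as its first 1143 by signal, as many as the IDR list holds. By this measure the 29 ribosomal protein hosts had a strongest call in 8 cases in replicate 1, 14 in replicate 2 and 5 in replicate 4. Over all genes the shares were 5.04%, 4.54% and 4.58%. RpL23A ranked 521 in replicate 1, 110 in replicate 2 and 499 in replicate 4, so it was among the strongest calls of all 3. RpL28, at ranks 684, 214 and 221, was the only other ribosomal protein host of which this was true. RpS12 ranked 14311, 499 and 465, and RpL17 ranked 1280, 518 and 6370. Replicate 2 gave the best of the 3 ranks at 11 of the 13 ribosomal protein hosts with an IDR peak (84.6%). It did so at 15 of 19 ribosomal protein genes that are not hosts (78.9%) and at 348 of all 898 genes with an IDR peak (38.8%). Depth and enrichment of the replicates are unknown from these lists, and their part in this was not tested.

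**Figure D4:**
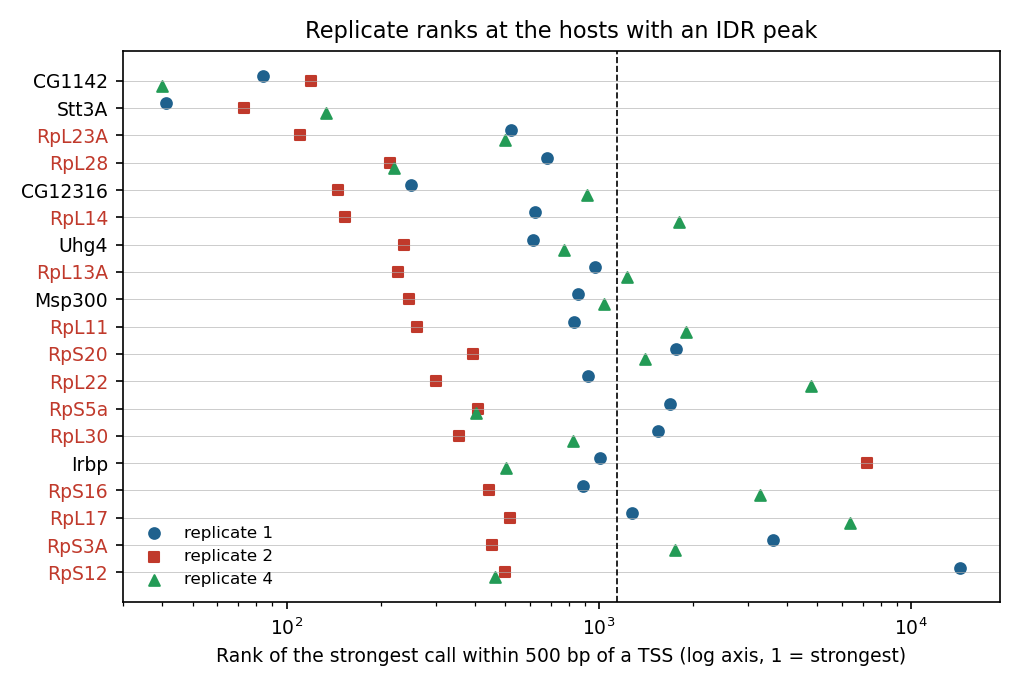
Rank of the strongest call within 500 bp of a TSS in each replicate (x axis, log axis, 1 is the strongest call of that replicate) for the 19 hosts with an IDR peak, in order of pooled signal; ribosomal protein genes are named in red, and the dashed line is rank 1143. Replicate 2 lies left of the line at 18 of the 19 hosts, replicate 1 at 13 and replicate 4 at 11.

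Leaving out replicate 2 changed the ribosomal protein count most. The IDR procedure could not be run again, so a peak was kept only if its summit lay inside a strongest call of both remaining replicates, which left 536, 615 and 604 of the 1143 peaks without replicates 1, 2 and 4. The ribosomal protein hosts with a peak then numbered 5 without replicate 1, 2 without replicate 2 and 7 without replicate 4, in place of 13. The ribosomal protein genes that are not hosts numbered 13, 11 and 13, in place of 19. The other hosts numbered 5, 6 and 5, in place of 6, and all genes 2.42%, 2.82% and 2.73%. The count over all hosts was 10, 8 and 12, and that of small RNAs reached through their own or their host's start 39, 23 and 34, in place of 59.

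**Figure D5:**
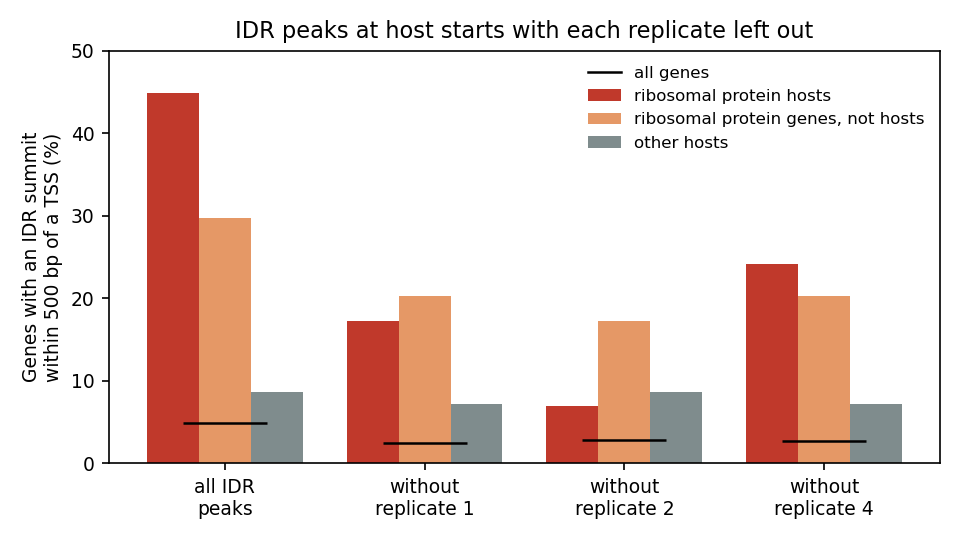
Share of genes whose start lies at most 500 bp from an IDR summit (y axis, percent) for 3 groups of genes (bars) and all genes (black lines), over all IDR peaks and over those supported by both remaining replicates (x axis). The ribosomal protein hosts go from 13 of 29 to 2 of 29 without replicate 2, while the other hosts go from 6 of 70 to 6 of 70.

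Hosts outside the ribosomal proteins included the highest signals among the hosts, though CG1142, the strongest, ranked 56 in the pooled list. CG1142, which contains scaRNA:MeU5-C46, a gene named for U5 spliceosomal RNA, had a pooled signal of 358 and ranks of 84, 120 and 40 in replicates 1, 2 and 4. Its peak at chr3R:7473840-7474022 had the summit 157 bp upstream of the start, with no other gene start within 500 bp. Stt3A, a catalytic subunit of oligosaccharyltransferase, followed with 343 and ranks of 41, 73 and 134, but its summit lay 425 bp upstream and only 184 bp from the start of bves. CG12316, with a signal of 204, ranked 250, 146 and 913 and contains scaRNA:MeU5-U42. Msp300, a nesprin of muscle and nuclear envelope, had a signal of 166 at a summit 94215 bp from its small RNA. Irbp, the fly Ku70 homologue of DNA repair, had 127, shared with mgr, whose start was nearer by 2 bp (85 against 87 bp). These 5 had a strongest call in every replicate except Irbp, which ranked 7233 in replicate 2.

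Among the 11 non-coding hosts, Uhg4 was the only one with an IDR peak (9.09%, interval 1.62 to 37.7). The interval includes both the 1.80% of the other non-coding RNA genes and the 4.91% of all genes, so the share cannot be read as low. Uhg4 had its summit 84 bp upstream of the start, with a pooled signal of 177. Its 7 small RNAs include both box H/ACA genes named above. It ranked 613, 237 and 771 in replicates 1, 2 and 4. The other Uhg genes had pooled signals of 69.1 at Uhg1, 57.5 at Uhg8, 50 at Uhg5, 49.9 at Uhg2 and 35.8 at Uhg7, and Uhg3 had no pooled call. Uhg1 ranked 657 in replicate 4 and 5217 in replicate 1 and had no call in replicate 2. Uhg5 ranked 944 in replicate 1 and had no call in the others. Uhg7 shares its 4 small RNAs with RpL23A, so these small RNAs have both a strongly and a weakly called host start.

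Over all 99 hosts, 7 had a strongest call of every replicate (7.07%), against 2.11% of all genes. They were CG1142, Stt3A, CG12316, Msp300, Uhg4, RpL23A and RpL28. The same was true of 2 small RNA genes, snoRNA:Or-CD11a and snoRNA:Psi28S-2949. Of the 19 hosts with an IDR peak these 7 make 36.8%, and of all genes with one 42.8% met the same condition. The ribosomal protein hosts gave 2 of 13, the ribosomal protein genes that are not hosts 10 of 19 and the other hosts 5 of 6.

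The 10 strongest hosts without an IDR peak lay just below the list. Dys, the fly dystrophin, had a pooled signal of 101, RpS4 of 99.3, the elongation factor gene eEF1alpha1 of 99.1 and kra, a translation regulator, of 98.9. gcl, a germ cell determinant, had 90.1, the Mediator subunit gene skd 86.7, drn 86.5 and Tudor-SN 76.6. Among the 10 strongest, 5 had a strongest call in 1 replicate and 5 in none. RpS4 and kra had no call in replicate 2, where eEF1alpha1 ranked 453.

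The 3 hosts with the most small RNAs had no IDR peak at a start. Arpc2, a subunit of the actin-nucleating Arp2/3 complex, contains 17 small RNAs and had no pooled call at a start. Uhg1 contains 16, and dom, a chromatin remodelling ATPase gene, contains 15 and had a pooled signal of 58.9. RpS5a contains 14 and had an IDR peak with ranks of 1689, 410 and 405. An IDR peak was found at 7 of 60 hosts with 1 small RNA (11.7%), at 8 of 24 with 2 to 4 (33.3%) and at 4 of 15 with 5 or more (26.7%), beside 19.2% of all hosts and 4.91% of all genes. Ribosomal protein genes make up a larger part of the hosts with 2 to 4 small RNAs than of the other hosts. These shares were not separated by kind of host, so they do not show a link with the number of small RNAs. The 37 families of numbered copies, with 119 genes, lie in a single host in 32 cases, although some of these hosts have several starts.

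The 17 scaRNA genes had 0 IDR peaks at their own starts (95% Wilson interval 0 to 18.4%) and a pooled call at 4 (23.5%). Over the other non-coding RNA genes the shares were 1.80% and 28.6%. Of the 15 scaRNA genes with a host, 3 had an IDR peak at the host start. The share was 23.5% over all small RNA genes with a host, and 19.2% of all hosts had such a peak. The scaRNA hosts with an IDR peak were CG1142, CG12316 and Stt3A. The hosts without one included the splicing genes Prp8, with a pooled signal of 53.9, and tra2, with 45.5. mask had 71.6 and skd 86.7, anchor 55.8, Gp210 42.3, CG2926 31.6 and dmt 28.8. hfp, lds, pit and bur had no pooled call. The 2 scaRNA genes with no host differed, since scaRNA:MeU1:95C-A24 had a pooled signal of 68 and scaRNA:MeU1b-A234 had no call in any list. In all, 23 small RNA genes had no host, and 10 of these had a pooled call (43.5%, interval 25.6 to 63.2). This share was near the 40.9% of all genes. The highest signal among these 10 was 97 at snoRNA:185, and snoRNA:Or-ACA6 had 96.8. snoRNA:185 ranked 488, 4313 and 1495 in replicates 1, 2 and 4, and snoRNA:Or-ACA6 ranked 6404, 870 and 2787.

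The proteins that work with these RNAs were a list of 15 genes, of which 11 had a pooled call and 3 an IDR peak at the start, beside 45.0% and 5.93% of all protein-coding genes. Those 3 were NHP2, a core box H/ACA protein, with a signal of 136, and rept and pont, a pair of ATPases that help to assemble these particles, with 124 and 114. NHP2 ranked 331, 1028 and 1199 in replicates 1, 2 and 4, and pont had no call in replicate 2. The enzymes themselves are hosts: Fib (fibrillarin) had a pooled signal of 51.7 and Nop60B (dyskerin) 52.6. nop5, a core box C/D protein and also a host, had 65.7. None of the 4 box C/D core genes had an IDR peak, and Nop56, coil and WDR79 had no call in any list.

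Away from their starts, 6 of the 99 hosts (6.06%) contained 9 IDR summits, beside 2.05% of all genes with such a summit. These counts go with gene length: among genes of at least 20000 bp the shares were 5 of 13 hosts (38.5%) and 16.2% of all such genes. kis, a chromatin remodeller gene, had one with a signal of 173, and tou, which encodes a chromatin protein, had signals of 163 and 134. Dys had 162 and 157, and Rbfox1, a splicing regulator, had 158 and 136. hts, the fly adducin, had 125 and Stt3A 114. The summits nearest to a small RNA were those of Stt3A, 933 bp from snoRNA:Me28S-U3344a, and Dys, 1146 bp from snoRNA:Me18S-A1374.

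Sequence elements at the host starts were counted from 250 bases before to 50 after the 5′ end of each gene. The TCT initiator core CTTT, as defined above, occurred at 20 of 99 hosts (20.2%) and at 6.32% of all gene starts. Among the ribosomal protein hosts it occurred at 7 of 13 with an IDR peak and at 4 of 16 without, and at 20 of 64 ribosomal protein genes that are not hosts. The gap between hosts with and without a peak depends on the start that is read. At the starts used for the sequences above, over 25 of these hosts, the core occurred at 6 of 11 with an IDR peak and at 6 of 14 without. The other motifs were read on both strands. The DRE core ATCGAT, the site of the replication-related factor DREF, occurred at 34.3% of hosts and 20.1% of all genes. The BEAF-32 core CGATA, which overlaps the DRE letters, occurred at 62.6% and 44.3%, and the E-box CACGTG at 10.1% and 4.27%. Ribosomal protein genes that are not hosts had ATCGAT at 46.9%, CGATA at 73.4% and CACGTG at 10.9%. The higher shares are therefore not particular to hosts. GAGAG occurred at 29.3% and 29.5%, and TATAAA at 45.5% and 43.9%. In the ribosomal protein hosts with an IDR peak ATCGAT was found at 3 of 13 and in those without at 5 of 16. These are matches of letters and carry no test.

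The box letters were found in most box H/ACA genes and in a smaller part of the box C/D genes. By symbol 109 are box C/D, 112 box H/ACA, 17 scaRNA and 36 of other names, among them the genes written Or-ACA. The C box was found in 77 and the D box in 100 of the box C/D genes, both in 75, and an ACA within 6 bases of the 3′ end in 108 of the box H/ACA genes. The shares with a pooled call at the start were 31.2% for box C/D and 22.3% for box H/ACA genes, and each class had 2 genes with an IDR peak.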

How the data were processed

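The samples were 3 biological replicates of anti-GFP ChIP-seq in CG10565-eGFP embryos. Per the deposited file descriptions, the authors called each replicate against 1 control alignment, called the pool of the replicates likewise, and derived an optimal IDR list. The aligner, caller, IDR threshold, depth and handling of multiply mapping reads were not given in the sources used here. The value used was the deposited signal of each call, made by the authors' peak caller, which has meaning only within its list. It served to rank calls.

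The dm6 lists were joined to Ensembl release 115 for the chromosomes 2L, 2R, 3L, 3R, 4, X and Y without transposable elements, with 18277 genes and 23697 TSSs. A summit within 500 bp of any TSS of a gene counted for it, so 1 summit can count for several genes, and the call with the highest signal was reported. Python 3.11.15, pandas 2.3.3, numpy 2.4.6, statsmodels 0.14.6 (Wilson intervals, 95%) and Biopython 1.88 (alignments) were used. The window rule was checked on planted calls. Peak ends lay within the lengths of the RefSeq chromosomes, and all 274 members had the same coordinates in RefSeq. The dm3 lists were not used. No column of per-sample values was left unassigned.

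With 1 group and no second condition, no test between samples was possible, and shares are set beside those of all genes. Ribosomal protein genes were protein-coding genes taken by symbol (RpL or RpS followed by a digit or P, and sta). Symbols with a further ending were not excluded. The small RNA genes, gene lists, motifs and the rule for named genes were chosen with earlier results of these data known. Named were small RNA genes and hosts with an IDR peak, the 10 strongest other hosts, the 3 hosts with most small RNAs, the Uhg genes, the scaRNA genes with their hosts and the list of proteins of these particles. Some of the hosts among those 10 are not reported here. RpS5a and the comparison of copies, and the small RNA genes named for lying without a host or with a summit inside, were chosen after their values had been seen. Alternatives were other windows, shorter lists, other definitions of host, start and replicate support, and each replicate left out.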

Additional observations from a re-analysis of the deposited data

How the results depend on the processing

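Of 76 alternative values for 12 counts, 51 were within 1.5 times of the reported count. The split into ribosomal protein hosts, other hosts and ribosomal protein genes that are not hosts was added after the data had been seen.

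With a 250 bp window, small RNA genes with an IDR peak numbered 2, those with a pooled call 38, those in the strongest calls of every replicate 1 and other hosts in them 3. With 1000 bp these numbered 21, 137 and 7 for the small RNA genes. With the nearest TSS only, small RNA genes with an IDR peak numbered 0. With the 571 IDR peaks of highest signal, hosts numbered 12 and small RNAs reached through their own or host start 31, and with the stronger 15000 pooled calls small RNA genes numbered 46. With 2286 strongest calls per replicate, hosts in all 3 numbered 14.

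With each replicate left out in turn, IDR counts ranged from 8 to 12 for hosts, 3 to 4 for small RNA genes, 23 to 39 for small RNAs through their own or host start, 2 to 7 for ribosomal protein hosts, 5 to 6 for other hosts and 11 to 13 for ribosomal protein genes that are not hosts. The lowest ribosomal protein counts, 2 and 11, were those without replicate 2. Counts in the strongest calls of the remaining replicates ranged from 8 to 12 for hosts, 2 to 3 for small RNA genes, 2 to 7 for ribosomal protein hosts and 5 to 6 for other hosts. Fewer IDR peaks pass this rule by construction, and other causes were not tested. No paired analysis was possible because the samples form 1 group. Depth is unknown, so a missing call does not show absence of binding, and 99 hosts leave wide intervals.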
